A study of Mus musculus with 17 samples.

Results

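Interferon-stimulated genes are the genes that a cell switches on when it senses interferon, and their products block viral replication, sense foreign nucleic acid or increase antigen presentation. The set described here held 44 mouse genes known to be induced by type I interferon, by interferon gamma or by both. It was set as a list of gene symbols, with no threshold on a measured value in its rule. This list and the other gene lists used below were chosen with earlier results of these data known. A count set against the share of all genes is therefore a description and not an independent test. All 44 were found among the 24594 genes of the count tables, and all 44 passed the filter on low counts that left 13881 genes for testing. They made up 5 genes of the oligoadenylate synthetase (OAS) family, 3 IFIT genes, 6 sensors of nucleic acid and 3 transcription factors. A further 5 belonged to the ISG15 system and to ADP-ribosylation, and 10 were antiviral effectors. The rest were 4 other genes of the type I response and 8 genes of the interferon gamma response and antigen processing.

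Type I interferons bind the receptor made of Ifnar1 and Ifnar2, and the kinases Jak1 and Tyk2 then activate a complex holding Stat2 and Irf9 that binds the interferon-stimulated response element (ISRE) in promoters. Interferon gamma acts through the receptor chains Ifngr1 and Ifngr2 and on promoters that hold the gamma-activated site (GAS). Activated CD8 T cells are themselves a main source of interferon gamma, and type I interferon acts on them directly during priming.

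RNA was sequenced from mouse spleen cells labelled as CD8 T cells, with CD8+Thy1.1+ as the genotype label of every library. The groups were named by a genetic modification label: Rosa KO, with 5 libraries and taken here as the control, and the 3 knockouts Tet2 KO, Asxl1 KO and Dnmt3a KO, with 4 libraries each. Asxl1 belongs to a Polycomb deubiquitinase complex, Dnmt3a methylates DNA and Tet2 oxidises methylated cytosine, and the series title places these regulators of clonal hematopoiesis in CD8 T cell stemness during immunotherapy. The labels used here give no age, strain, treatment, time or method of knockout, and they do not say whether libraries of a group came from separate animals. A p-value here therefore reflects library-to-library spread alone, part of which may be technical.

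The shallowest library, Rosa KO 5, held 6625833 counts and the deepest, Rosa KO 4, held 40701203. None of the targeted genes passed the test in its own knockout: the log2 fold changes were −0.13 for Asxl1 (adjusted p = 0.836), −0.06 for Dnmt3a (adjusted p = 0.978) and −0.26 for Tet2 (adjusted p = 0.735), so the RNA levels do not check the labels. The T cell gene Cd8a had 641 to 1240 CPM (gene counts scaled to a common library size with TMM factors) in the 17 libraries. The summed level of 14 B cell markers ran from 155 CPM (Tet2 KO 2) to 3121 CPM (Rosa KO 3), and that of 12 monocyte and macrophage markers from 47.0 CPM (Tet2 KO 2) to 1124 CPM (Rosa KO 1). In such bulk samples a lower share of a cell type and less RNA per cell cannot be told apart. Each library carries a number in its label, and these numbers form 3 separate stretches, called number ranges here, which the labels do not call batches. Number range 1 held Rosa KO 1, Asxl1 KO 1 and Dnmt3a KO 1 and 2. Number range 2 held Asxl1 KO 2, Dnmt3a KO 3 and 4 and Tet2 KO 1 and 2, and number range 3 held Rosa KO 2 to 5, Asxl1 KO 3 and 4 and Tet2 KO 3 and 4. Range 2 therefore had no Rosa KO library and range 3 no Dnmt3a KO library. The range was a term in the edgeR model beside the group.

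The promoters of the members were searched for the sites that the interferon-activated factors are known to bind. The ISRE core was searched as GAAA, any 2 bases and GAAA again, on both strands, where matches can overlap each other, over 250 bases before to 50 bases after each start site (RefSeq, build GRCm38.p6). It was found in 19 of the 33 members with a promoter in the table (57.6%), against 3.99% of the 27025 genes searched and 3.44% of the 32851 windows of that length. A single chromosome, which holds no member, was left out of these genes and windows. The GAS letters TTCNNNGAA, which read the same on both strands and can share bases with an ISRE match, were found in 10 of the 33 (30.3%), against 9.55% of the genes. A match is a stretch of letters and not a measured binding site. The members not in the promoter table were Ifi27l2a, Ly6e, Mx1, Mx2, Usp18, Rtp4, Oas2, Dhx58, Zbp1, Parp9 and Parp14.

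The 250 bases before the start site are printed for 3 genes that rose in a knockout (Bst2, Oas1a and Oas3), for Isg15, Ifit1 and Irgm1 as members of other roles with a match, and for Samhd1, which differed between number ranges and had no ISRE core match, though it is among the 10 with a GAS match. Each runs 5′ to 3′ on the strand of the gene, and capitals mark the matches to the ISRE core, which read TTTC, 2 bases and TTTC where they lie on the opposite strand.
Bst2 (chr8:71537473-71537722, minus strand): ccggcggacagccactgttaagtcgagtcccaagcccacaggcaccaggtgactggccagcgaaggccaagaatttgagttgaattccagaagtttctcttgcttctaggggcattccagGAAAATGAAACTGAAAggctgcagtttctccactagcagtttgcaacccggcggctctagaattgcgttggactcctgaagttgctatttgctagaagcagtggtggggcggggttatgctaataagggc
Oas1a (chr5:120907526-120907775, minus strand): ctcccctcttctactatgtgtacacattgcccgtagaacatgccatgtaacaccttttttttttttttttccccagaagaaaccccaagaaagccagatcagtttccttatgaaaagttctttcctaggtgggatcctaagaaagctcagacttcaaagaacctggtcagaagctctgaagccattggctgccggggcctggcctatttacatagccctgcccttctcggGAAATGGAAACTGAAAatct
Oas3 (chr5:120777660-120777909, minus strand): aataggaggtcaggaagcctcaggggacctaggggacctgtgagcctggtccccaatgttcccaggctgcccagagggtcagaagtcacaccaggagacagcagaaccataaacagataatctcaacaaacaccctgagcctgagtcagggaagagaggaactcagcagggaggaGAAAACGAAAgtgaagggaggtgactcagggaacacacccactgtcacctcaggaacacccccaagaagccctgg
Isg15 (chr4:156200819-156201068, minus strand): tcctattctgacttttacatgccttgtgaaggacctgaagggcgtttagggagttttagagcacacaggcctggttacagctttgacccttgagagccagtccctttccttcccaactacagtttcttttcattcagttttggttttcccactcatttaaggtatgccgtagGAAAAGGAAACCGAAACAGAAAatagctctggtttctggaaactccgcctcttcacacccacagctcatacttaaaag
Ifit1 (chr19:34640639-34640888, plus strand): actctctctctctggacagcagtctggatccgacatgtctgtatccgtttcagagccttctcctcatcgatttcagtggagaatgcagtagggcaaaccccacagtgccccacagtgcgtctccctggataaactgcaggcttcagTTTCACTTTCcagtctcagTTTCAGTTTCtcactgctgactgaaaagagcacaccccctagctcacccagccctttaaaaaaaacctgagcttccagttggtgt
Irgm1 (chr11:48871421-48871670, minus strand): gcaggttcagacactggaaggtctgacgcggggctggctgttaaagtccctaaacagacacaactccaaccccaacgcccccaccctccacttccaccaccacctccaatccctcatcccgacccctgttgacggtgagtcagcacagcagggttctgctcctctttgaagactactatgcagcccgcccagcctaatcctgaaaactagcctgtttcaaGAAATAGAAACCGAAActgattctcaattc
Samhd1 (chr2:157135097-157135346, minus strand): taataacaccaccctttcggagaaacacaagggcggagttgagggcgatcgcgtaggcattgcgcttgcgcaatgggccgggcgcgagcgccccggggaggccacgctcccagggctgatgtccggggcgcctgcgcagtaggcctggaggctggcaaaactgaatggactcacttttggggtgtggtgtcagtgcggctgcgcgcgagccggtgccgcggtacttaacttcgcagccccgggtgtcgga

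Isg15 had 3 overlapping matches, the first starting 78 bases before the start site. Bst2, Oas1a and Irgm1 had 2 overlapping matches each, starting 130, 20 and 30 bases before it. The 2 matches of Ifit1 lay apart, at 104 and 85 bases before the start, and the single match of Oas3 lay at 75 bases. The last printed bases of Oas1a and Oas3 lie inside the annotated gene span, which begins upstream of the start site used here. For Oas1a nearly all of the stretch in capitals lies inside that span, while the match of Oas3 lies outside it.

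All 44 members were expressed in every group, and their levels per length of exon spanned a wide range. In Rosa KO the mean level per kilobase of exon was 723 ± 149 CPM for Ifi27l2a (SD, n = 5), which encodes a small mitochondrial and nuclear membrane protein of the type I response. It was 248 ± 68.9 CPM per kilobase for Ly6e and 186 ± 60.9 CPM per kilobase for Ifi47. The lowest levels were 4.46 ± 2.73 CPM per kilobase for Oas2 and 7.21 ± 2.04 CPM per kilobase for Oasl1. Ifi27l2a and Oas2 were also the highest and the lowest member in Tet2 KO and in Asxl1 KO by the same measure.

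**Figure D1:**
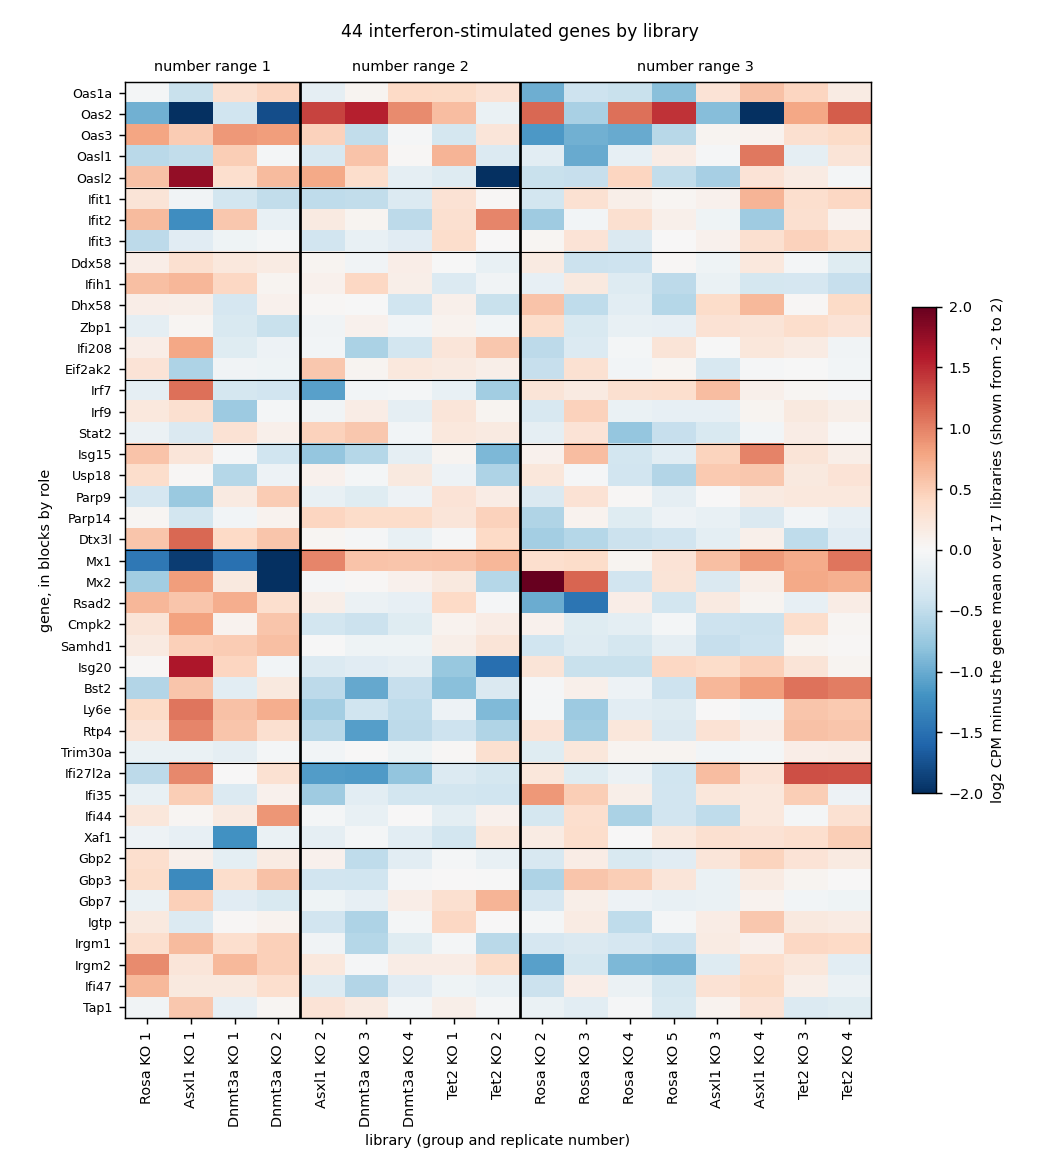
Log2 CPM of each of the 44 members (rows, in blocks by role) in each of the 17 libraries (columns, ordered by number range and group), as the difference from the gene mean over all libraries, with colours limited to −2 and 2. Ifi27l2a, Bst2, Ly6e and Rtp4 are below their gene mean in all 5 libraries of number range 2, Mx1 is low across number range 1, and Tet2 KO 3 and Asxl1 KO 4 each have 34 of 44 members above their mean.

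Asxl1 KO, Dnmt3a KO and Tet2 KO were each compared with Rosa KO to ask whether the members differed when a regulator was targeted. In Tet2 KO 5 members rose and none fell: Ifi27l2a, the tethering factor gene Bst2, the surface protein gene Ly6e and the oligoadenylate synthetase genes Oas1a and Oas3 (against 0.987% of all 13881 genes higher, 0.483% lower and 1.47% in either direction). At an unadjusted p under 0.05, 10 were higher and 0 lower, where 12.2% of all genes were past it in either direction, and DESeq2 passed 5 members. In Asxl1 KO 2 members rose and none fell, Ifi27l2a and Bst2, against 0.814% of all genes higher, 0.821% lower and 1.64% in either direction. At an unadjusted p under 0.05, 9 were higher and 1 lower, where 15.7% of all genes were past it, and DESeq2 passed 3 members. In Dnmt3a KO no member passed the edgeR test, against 0.216% of all genes, and none passed with DESeq2. At an unadjusted p under 0.05, 4 members were higher and 1 lower in Dnmt3a KO, where 8.03% of all genes were past it. These were Bst2, Ifi27l2a, Ly6e and Oas1a on the higher side and Ifi208 on the lower. The 3 comparisons share their Rosa KO libraries. The share of all genes passing in DESeq2 is not given here, so its counts of members have no such level beside them.

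Over all 44 members the median log2 fold change against Rosa KO was 0.23 in Tet2 KO and 0.23 in Asxl1 KO, with 34 of 44 above 0 in each. It was 0.06 in Dnmt3a KO, with 24 of 44 above 0. Without Asxl1 KO 4 the median in Asxl1 KO was 0.09. The median in Dnmt3a KO was close to 0 and changed sign with no number range term (−0.05) and without Dnmt3a KO 3 (−0.0058). Without Rosa KO 1 it was 0.19, in a fit where no number range holds both Dnmt3a KO and Rosa KO. Over all tested genes the medians were −0.02, 0.0004 and −0.003, with 48.4%, 50% and 49.8% above 0. An F test over all group terms passed for 2 of the 44 members, Ifi27l2a (adjusted p = 0.000181) and Bst2 (adjusted p = 0.0377), against 1.79% of all genes. Most members of each role thus had fold changes that the test did not separate from 0.

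**Figure D2:**
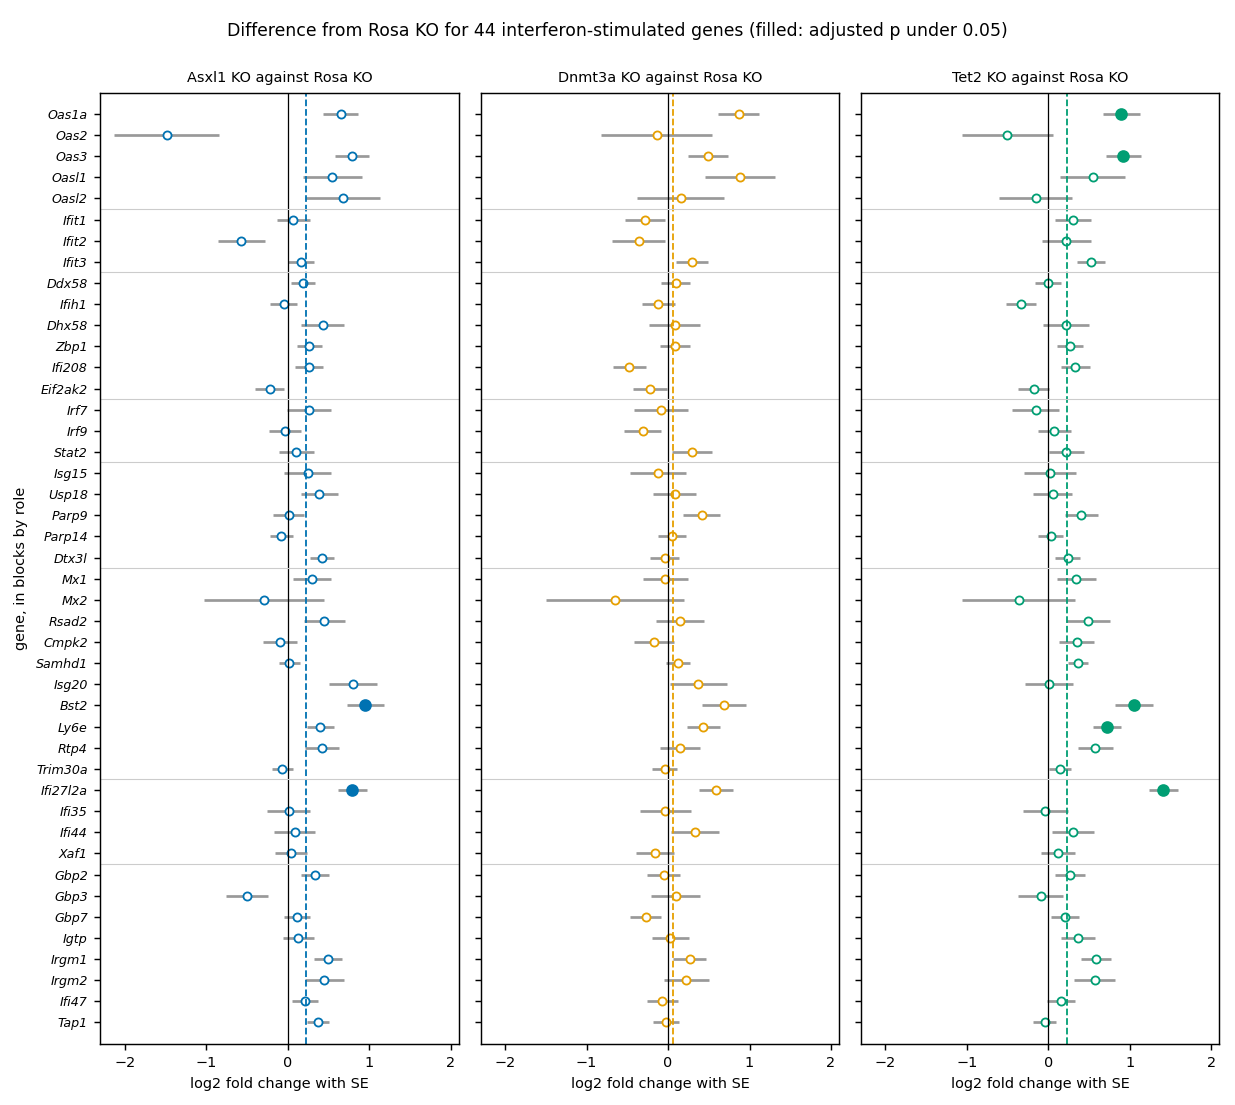
Log2 fold change against Rosa KO with its SE for each of the 44 members (rows, in blocks by role) in the 3 knockouts, from the edgeR model with number range as a term. Filled points passed at an adjusted p under 0.05 and open points did not; the dashed line is the median over the 44 members, 0.23 in Asxl1 KO, 0.06 in Dnmt3a KO and 0.23 in Tet2 KO.

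Ifi27l2a (NCBI gene 76933, chromosome 12, 103433873 to 103443680, minus strand) was the member with the lowest p in Tet2 KO. Ifi27l2a had 266, 444, 323, 350.1 and 289 CPM in Rosa KO 1 to 5 and 742, 176, 587 and 461 CPM in Asxl1 KO 1 to 4. Ifi27l2a had 383, 469, 173 and 219.5 CPM in Dnmt3a KO 1 to 4 and 314, 299.9, 933 and 922 CPM in Tet2 KO 1 to 4. Tet2 KO 3 and 4 were above every other library, while Tet2 KO 1 and 2, in the number range without Rosa KO, lay within the span of Rosa KO. The group means were 335 ± 68.9 CPM in Rosa KO (SD, n = 5), 491 ± 239.8 CPM in Asxl1 KO and 617 ± 358 CPM in Tet2 KO (n = 4 each). The log2 fold change was 1.41 ± 0.18 (SE, adjusted p = 0.000101) in Tet2 KO and 0.79 ± 0.18 (SE, adjusted p = 0.0178) in Asxl1 KO. In Dnmt3a KO it was 0.59 ± 0.21 (SE, adjusted p = 0.417). Ifi27l2a did not pass in Asxl1 KO without Asxl1 KO 3, Rosa KO 1 or Rosa KO 5 (largest adjusted p = 0.0919). Within number range 3 alone it was 1.40 (adjusted p = 4.41e-05) in Tet2 KO and 0.57 (adjusted p = 0.0419) in Asxl1 KO. The neighbouring gene Ifi27 overlaps Ifi27l2a and the counts may not separate them. Ifi27 had 130 and 115 CPM in Tet2 KO 3 and 4, against 101 to 154 CPM in Rosa KO, and a log2 fold change of 0.02 in Tet2 KO (adjusted p = 0.99).

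Bst2 (NCBI gene 69550, chromosome 8, 71534255 to 71537472, minus strand) encodes tetherin, which holds budding virus particles at the cell surface. Bst2 had 29.6, 44.05, 48.0, 41.6 and 33.4 CPM in Rosa KO 1 to 5 and 65.3, 30.9, 70.8 and 79.4 CPM in Asxl1 KO 1 to 4. Bst2 had 38.4, 51.1, 21.9 and 32.4 CPM in Dnmt3a KO 1 to 4 and 25.0, 36.6, 95.2 and 90.3 CPM in Tet2 KO 1 to 4. In number range 3, both Asxl1 KO and both Tet2 KO libraries lay above all Rosa KO libraries, while the range 2 libraries of both knockouts lay between 25.0 and 36.6 CPM. The log2 fold change was 1.06 ± 0.23 (SE, adjusted p = 0.0223) in Tet2 KO and 0.95 ± 0.23 (SE, adjusted p = 0.0303) in Asxl1 KO. It was 0.68 ± 0.27 (SE, adjusted p = 0.478) in Dnmt3a KO. Within number range 3 it was 1.15 (adjusted p = 0.00867) in Tet2 KO and 0.84 (adjusted p = 0.0431) in Asxl1 KO. Bst2 did not pass in Tet2 KO without Rosa KO 4, Rosa KO 5, Tet2 KO 3 or Tet2 KO 4 (largest adjusted p = 0.22). Bst2 did not pass in Asxl1 KO without Asxl1 KO 1, Asxl1 KO 3, Asxl1 KO 4, Rosa KO 1, Rosa KO 4, Rosa KO 5, Tet2 KO 3 or Tet2 KO 4 (largest adjusted p = 0.0912). Bst2 is also a gene of plasmacytoid dendritic cells. The defining marker of those cells, Siglech, was at 0 in 7 libraries, among them Tet2 KO 3 and Asxl1 KO 3. Its highest level was 7.51 CPM (Rosa KO 2). Siglech was above 0 in Tet2 KO 4 and Asxl1 KO 4, and only Rosa KO 2 was higher than Tet2 KO 4. Of the 6 tested markers of those cells, Bst2 and Pacsin1 rose in Asxl1 KO and Bst2 alone in Tet2 KO, against 0.814% and 0.987% of all genes. Pacsin1 had 50.3 and 43.0 CPM in Asxl1 KO 3 and 4, 21.0 and 20.2 CPM in Asxl1 KO 1 and 2 and 9.17 to 20.7 CPM in Rosa KO (log2 fold change 1.30, adjusted p = 0.0385 in edgeR). The summed level of the other 7 markers without Bst2, of which Runx2 made the largest part in all 17 libraries, ran over 275 to 449.9 CPM among the Rosa KO libraries, 235 to 314 among Tet2 KO and 204 to 660 among Asxl1 KO. The part of these markers in the result was not tested.

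**Figure D3:**
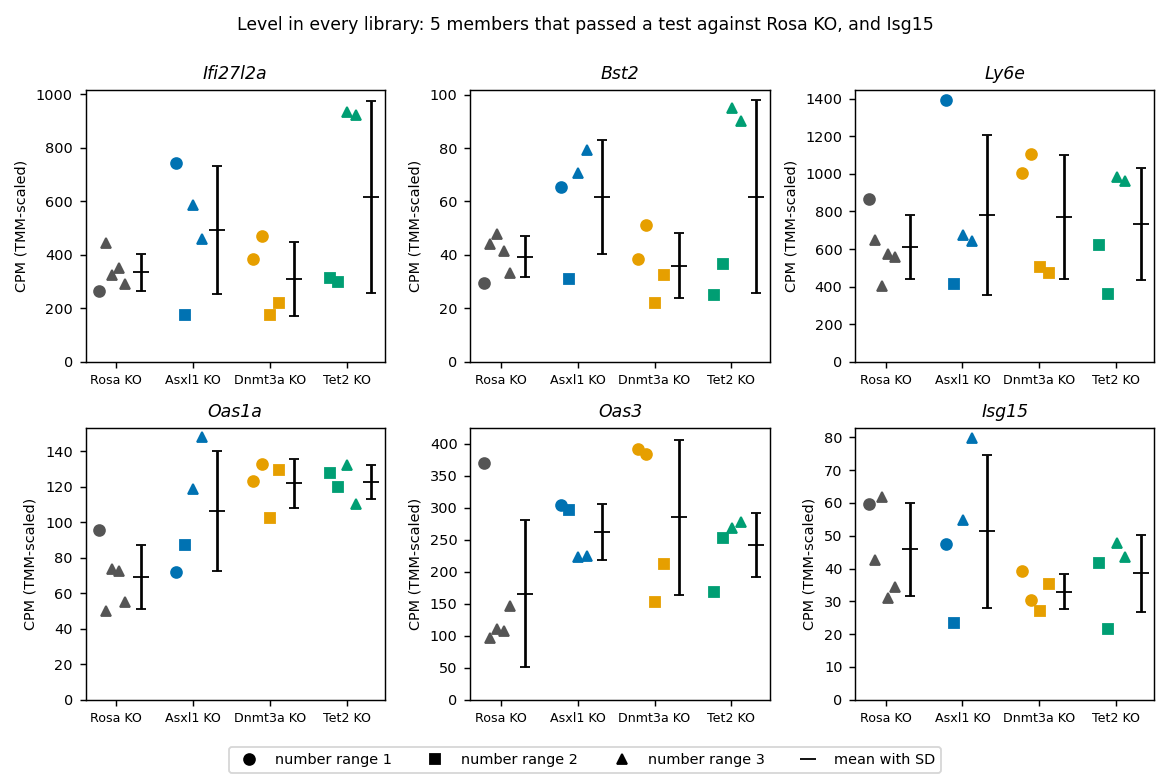
CPM of the 5 members that passed a test against Rosa KO, and of Isg15 as a member that did not, in every library, with marker shapes for the number range and bars for the group mean with SD (n = 5 for Rosa KO, 4 for each knockout). In Tet2 KO the 2 libraries of number range 3 are the high ones for Ifi27l2a, Bst2 and Ly6e, while all 4 are above Rosa KO for Oas1a.

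The tests against Rosa KO rested on few libraries. With no term for the number range, none of the 44 members passed in Tet2 KO or in Asxl1 KO, and the adjusted p of Ifi27l2a was 0.833 and 0.668. In Tet2 KO 1 member passed without Rosa KO 4, Rosa KO 5, Tet2 KO 3 or Tet2 KO 4, 2 without Dnmt3a KO 2 or Rosa KO 3, and 3 without Tet2 KO 1 or Rosa KO 2. The call of Ifi27l2a in Tet2 KO held in each of the 17 fits that left out 1 library, with a largest adjusted p of 0.00195. In Asxl1 KO no member passed without Rosa KO 5 or Asxl1 KO 3, and 1 passed without Rosa KO 4, Tet2 KO 3, Tet2 KO 4 or Asxl1 KO 4. In Dnmt3a KO 1 member passed without Rosa KO 1, a fit in which no number range holds both Dnmt3a KO and Rosa KO. The summed B cell markers were 2842 to 3121 CPM in Rosa KO 2 to 5, 2801 and 2711 CPM in Tet2 KO 3 and 4, and 693 and 661 CPM in Asxl1 KO 3 and 4. With the mean of these markers as a covariate, 5 members passed in Tet2 KO, while in Asxl1 KO Ifi27l2a passed (adjusted p = 0.0254) and Bst2 did not (adjusted p = 0.0619). None of the 14 B cell markers and none of the 12 monocyte markers passed against Rosa KO in any knockout, while 3 of 8 tested CD8 T cell markers rose in Asxl1 KO (Cd3d, Cd3g and Lat) and 1 rose in Tet2 KO (Cd3d). Of 8 NK cell markers, Klrb1c, Gzma and Klrc1 fell in Asxl1 KO and in Dnmt3a KO, Klrb1c fell in Tet2 KO, and Eomes, which CD8 T cells also express, rose in Asxl1 KO. Klrb1c had 234 to 266 CPM in Rosa KO 2 to 5, 108 CPM in Rosa KO 1 and at most 39.5 CPM in any knockout library, with log2 fold changes of −2.62 in Asxl1 KO, −3.65 in Dnmt3a KO and −2.38 in Tet2 KO. Of 7 markers of CD4 and regulatory T cells, Icos rose in Tet2 KO. Over all genes, 0.814% were higher and 0.821% lower in Asxl1 KO, and 0.987% higher and 0.483% lower in Tet2 KO. In Dnmt3a KO 0.216% of all genes passed in either direction. None passing among the 14 B cell or the 12 monocyte markers is near these shares. The part of the CD8 T cell, NK cell and CD4 T cell markers in the results was not tested.

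Oligoadenylate synthetases make the second messenger that activates RNase L on viral RNA. The 5 genes of this role also include the OAS-like genes Oasl1 and Oasl2, to which this need not apply. Of these 5 genes, Oas1a and Oas3 rose in Tet2 KO and none passed in Asxl1 KO or Dnmt3a KO. The medians over the 5 were 0.55 in Tet2 KO, 0.65 in Asxl1 KO and 0.49 in Dnmt3a KO on the log2 scale. Oas1a (NCBI gene 246730, chromosome 5, 120896256 to 120907544, minus strand) was the only member whose 4 Tet2 KO libraries and whose 4 Dnmt3a KO libraries all lay above the 5 Rosa KO libraries. Oas1a had 95.5, 49.9, 73.5, 72.3 and 55.1 CPM in Rosa KO 1 to 5 and 72.2, 87.0, 118 and 148 CPM in Asxl1 KO 1 to 4. Oas1a had 123, 133, 102 and 129 CPM in Dnmt3a KO 1 to 4 and 128, 119.9, 132.02 and 110.4 CPM in Tet2 KO 1 to 4. Its log2 fold change was 0.90 ± 0.23 (SE, adjusted p = 0.0454) in Tet2 KO, 0.87 ± 0.25 (SE, adjusted p = 0.213) in Dnmt3a KO and 0.65 ± 0.21 (SE, adjusted p = 0.117) in Asxl1 KO. Mx1 was the other member without overlap between Tet2 KO and Rosa KO, where 1.43% of all genes were higher without overlap, and the value for Dnmt3a KO was 2.02%. The adjusted p of Oas1a in Tet2 KO was above 0.05 in 13 of the 17 fits that left out 1 library, reaching 0.312. It stayed below 0.05 without Rosa KO 1, Asxl1 KO 1, Dnmt3a KO 4 or Asxl1 KO 4.

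Oas3 (NCBI gene 246727, chromosome 5, 120753098 to 120777684, minus strand) was higher in number range 1 than in every other library. Oas3 had 369, 96.4, 110, 107 and 147 CPM in Rosa KO 1 to 5 and 304, 296, 223 and 225 CPM in Asxl1 KO 1 to 4. Oas3 had 391, 384, 152 and 211 CPM in Dnmt3a KO 1 to 4 and 168, 253, 268 and 278 CPM in Tet2 KO 1 to 4. Within number range 3 both Tet2 KO libraries and both Asxl1 KO libraries lay above all Rosa KO libraries. The log2 fold change was 0.92 ± 0.22 (SE, adjusted p = 0.0305) in Tet2 KO and 0.79 ± 0.21 (SE, adjusted p = 0.052) in Asxl1 KO. Within number range 3 it was 1.25 (adjusted p = 0.000254) in Tet2 KO and 0.96 (adjusted p = 0.00151) in Asxl1 KO. Oas3 did not pass in Tet2 KO without Dnmt3a KO 2, Rosa KO 2, Rosa KO 3, Rosa KO 4, Rosa KO 5, Tet2 KO 3 or Tet2 KO 4 (largest adjusted p = 0.251). Oasl2 (NCBI gene 23962, chromosome 5, 114896926 to 114912245, plus strand) encodes an OAS-like protein. Oasl2 had 67.8, 33.4, 32.8, 61.1 and 32.2 CPM in Rosa KO 1 to 5 and 154, 77.0, 28.6 and 54.8 CPM in Asxl1 KO 1 to 4. Oasl2 had 57.1, 70.3, 58.0 and 39.9 CPM in Dnmt3a KO 1 to 4 and 38.1, 6.78, 50.9 and 43.98 CPM in Tet2 KO 1 to 4. Tet2 KO 2 was the lowest library and Asxl1 KO 1 the highest, and the log2 fold changes were 0.67 ± 0.46 (SE, adjusted p = 0.529) in Asxl1 KO and −0.16 ± 0.45 (SE, adjusted p = 0.94) in Tet2 KO. Oas2 and Oasl1 were low, at 1.17 to 31.7 CPM and 9.80 to 41.1 CPM.

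The IFIT proteins bind viral RNA and block its translation. None of Ifit1, Ifit2 and Ifit3 passed in any knockout, and the medians over the 3 were 0.31 in Tet2 KO, 0.07 in Asxl1 KO and −0.28 in Dnmt3a KO. Ifit1 had 92.3, 59.4, 95.0, 83.7 and 79.3 CPM in Rosa KO 1 to 5 and 73.0, 53.7, 81.3 and 123 CPM in Asxl1 KO 1 to 4. Ifit1 had 59.7, 54.8, 54.9 and 63.7 CPM in Dnmt3a KO 1 to 4 and 93.7, 78.5, 97.0 and 102 CPM in Tet2 KO 1 to 4. All 4 Dnmt3a KO libraries of Ifit1 lay below all 4 Tet2 KO libraries, although the difference did not pass (−0.59 ± 0.24 SE, adjusted p = 0.801). In that comparison 5 members were lower without overlap (Ifit1, Ifit3, Ifi208, Mx1 and Trim30a) and 1 was higher (Ifih1), where 2.48% of all genes were lower and 2.84% higher. The 2 knockouts share only number range 2. There Mx1 had 115 and 115 CPM in Dnmt3a KO 3 and 4 and 116 and 123.6 CPM in Tet2 KO 1 and 2. In number range 1, Mx1 had 27.5 and 10.8 CPM in Dnmt3a KO 1 and 2. Ifit1 (NCBI gene 15957, chromosome 19, 34640889 to 34650009, plus strand) overlaps the more abundant Ifit1bl1, and the counts may not separate the pair. Ifit3 had 85.1, 125.8, 148, 101 and 123 CPM in Rosa KO 1 to 5 and 105, 94.4, 129 and 152 CPM in Asxl1 KO 1 to 4. Ifit3 had 116, 119.9, 111 and 104 CPM in Dnmt3a KO 1 to 4 and 157, 123.9, 168 and 157 CPM in Tet2 KO 1 to 4. Ifit3 (NCBI gene 15959, chromosome 19, 34583119 to 34588982, plus strand) was likewise lower in every Dnmt3a KO library than in every Tet2 KO library, and its fold change against Rosa KO was 0.52 ± 0.17 (SE, adjusted p = 0.159) in Tet2 KO. Ifit2 ranged from 39.2 CPM (Asxl1 KO 1) to 182 CPM (Tet2 KO 2).

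The sensors Ddx58 (RIG-I), Ifih1 (MDA5) and Dhx58 (LGP2) detect viral RNA, Zbp1 detects unusual nucleic acid helices, and Eif2ak2 (PKR) stops translation on double-stranded RNA. None of these or of Ifi208, of the family of nucleic acid binders that includes Ifi204, passed in a knockout, with medians over the 6 of 0.11 in Tet2 KO, 0.22 in Asxl1 KO and −0.02 in Dnmt3a KO. Ddx58 ranged from 189 to 316 CPM and Zbp1 from 168 to 292 CPM over the 17 libraries. Ifih1 ranged from 122 to 276 CPM, Dhx58 from 27.3 to 63.6 CPM and Eif2ak2 from 105 to 233 CPM. Ifih1 was higher in every Dnmt3a KO library (182 to 234 CPM) than in every Tet2 KO library (128 to 167 CPM). Ifi208 was lower in Dnmt3a KO than in the other knockouts without overlap, although neither difference passed: its 4 Dnmt3a KO libraries (147 to 213 CPM) lay below all Asxl1 KO (221 to 392 CPM) and all Tet2 KO libraries (219.5 to 334 CPM). Ifi208 was the only member higher in Asxl1 KO than in Dnmt3a KO without overlap, where 2.05% of all genes were. The log2 fold changes were 0.73 ± 0.19 (SE, adjusted p = 0.098) for Asxl1 KO against Dnmt3a KO and −0.81 ± 0.19 (SE, adjusted p = 0.132) for Dnmt3a KO against Tet2 KO. Ifi208 and Ifih1 were chosen for these sentences after their values were seen.

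Stat2 and Irf9 are part of the complex that binds the ISRE in the type I response, and Irf7 amplifies type I interferon production. None passed in a knockout. Stat2 had 87.8, 83.7, 115, 55.3 and 68.6 CPM in Rosa KO 1 to 5 and 77.2, 130.8, 77.1 and 91.2 CPM in Asxl1 KO 1 to 4. Stat2 had 116, 102, 139 and 91.0 CPM in Dnmt3a KO 1 to 4 and 109.6, 107, 105 and 96.8 CPM in Tet2 KO 1 to 4. Stat2 (NCBI gene 20847, chromosome 10, 128270498 to 128292853, plus strand) overlapped between all groups, with fold changes of 0.10 ± 0.21, 0.29 ± 0.25 and 0.22 ± 0.22 in Asxl1 KO, Dnmt3a KO and Tet2 KO. Irf7 had 82.8, 112, 106, 117 and 118 CPM in Rosa KO 1 to 5 and 200.3, 43.9, 143 and 100.2 CPM in Asxl1 KO 1 to 4. Irf7 had 73.7, 71.6, 90.1 and 91.4 CPM in Dnmt3a KO 1 to 4 and 84.9, 58.1, 96.7 and 92.5 CPM in Tet2 KO 1 to 4. Irf7 (NCBI gene 54123, chromosome 7, 141263183 to 141266499, minus strand) was highest in Asxl1 KO 1 and lowest in Asxl1 KO 2. Both Tet2 KO libraries of number range 3 lay below the 4 Rosa KO libraries of that range, while the fold change over all libraries was −0.16 ± 0.29. Irf9 ranged from 81.9 to 188 CPM. The medians over the 3 were 0.07 in Tet2 KO, 0.11 in Asxl1 KO and −0.08 in Dnmt3a KO.

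Isg15 is a ubiquitin-like protein attached to other proteins in infected cells, and Usp18 removes it and dampens signalling at the type I receptor. Isg15 had 59.6, 42.6, 61.7, 30.9 and 34.4 CPM in Rosa KO 1 to 5 and 47.4, 23.3, 54.7 and 79.9 CPM in Asxl1 KO 1 to 4. Isg15 had 39.3, 30.5, 26.9 and 35.2 CPM in Dnmt3a KO 1 to 4 and 41.7, 21.4, 47.9 and 43.4 CPM in Tet2 KO 1 to 4. Isg15 (NCBI gene 100038882, chromosome 4, 156199424 to 156200818, minus strand) overlapped between all groups, and its fold changes were 0.25 ± 0.29 in Asxl1 KO, −0.13 ± 0.35 in Dnmt3a KO and 0.03 ± 0.32 in Tet2 KO. Usp18 had 115, 105, 88.6, 69.1 and 60.1 CPM in Rosa KO 1 to 5 and 91.4, 95.7, 129 and 130.6 CPM in Asxl1 KO 1 to 4. Usp18 had 60.3, 83.5, 87.8 and 102 CPM in Dnmt3a KO 1 to 4 and 83.8, 58.6, 103 and 108 CPM in Tet2 KO 1 to 4. Usp18 (NCBI gene 24110, chromosome 6, 121245906 to 121270917, plus strand) was highest in Asxl1 KO 3 and 4, above the 4 Rosa KO libraries of their range, with a fold change of 0.39 ± 0.23 (SE, adjusted p = 0.421). Parp9 and Dtx3l form a complex of ADP-ribosylation and ubiquitin ligase activity, and Parp14 is a related ADP-ribosyltransferase. Dtx3l had 361, 153, 165, 181 and 188 CPM in Rosa KO 1 to 5 and 541, 252, 214 and 263 CPM in Asxl1 KO 1 to 4. Dtx3l had 323, 360.2, 240 and 222 CPM in Dnmt3a KO 1 to 4 and 241, 322, 173 and 211 CPM in Tet2 KO 1 to 4. Dtx3l (NCBI gene 209200, chromosome 16, 35926515 to 35939027, minus strand) was higher in the 4 libraries of number range 1 than in all others, and it overlaps Parp9, so the counts may not separate the pair. Parp9 ranged from 76.7 to 183 CPM and Parp14 from 218 to 456 CPM. None of the 5 genes of this role passed in a knockout, with medians of 0.05 in Tet2 KO, 0.25 in Asxl1 KO and 0.04 in Dnmt3a KO.

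Among the 10 antiviral effectors, Bst2 and Ly6e rose in Tet2 KO, Bst2 rose in Asxl1 KO, and none fell. The medians over the 10 were 0.35 in Tet2 KO, 0.35 in Asxl1 KO and 0.14 in Dnmt3a KO. Ly6e (NCBI gene 17069, chromosome 15, 74955025 to 74959904, plus strand) encodes a GPI-anchored surface protein that restricts entry of some viruses. Ly6e had 868, 649.9, 404, 574 and 556 CPM in Rosa KO 1 to 5 and 1394, 415, 672 and 641 CPM in Asxl1 KO 1 to 4. Ly6e had 1005, 1107, 504 and 471 CPM in Dnmt3a KO 1 to 4 and 622, 363, 985 and 963 CPM in Tet2 KO 1 to 4. The number range 1 libraries and Tet2 KO 3 and 4 were high, while Tet2 KO 1 and 2 had 622 and 363 CPM. The log2 fold change was 0.72 ± 0.17 (SE, adjusted p = 0.0344) in Tet2 KO, and within number range 3 it was 0.84 (adjusted p = 0.00406). Ly6e did not pass in Tet2 KO without Dnmt3a KO 2, Rosa KO 1, Rosa KO 3, Rosa KO 4, Rosa KO 5, Tet2 KO 1, Tet2 KO 3 or Tet2 KO 4 (largest adjusted p = 0.323). In Asxl1 KO it was 0.40 ± 0.17 (SE, adjusted p = 0.241).

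Mx1 (NCBI gene 17857, chromosome 16, 97447035 to 97462906, minus strand) encodes a dynamin-like GTPase against influenza virus, and RefSeq lists Mx1 and Mx2 of this reference strain as transcribed pseudogenes. Mx1 had 28.7, 97.98, 99.7, 80.9 and 93.7 CPM in Rosa KO 1 to 5 and 20.7, 152, 117 and 141 CPM in Asxl1 KO 1 to 4. Mx1 had 27.5, 10.8, 115 and 115 CPM in Dnmt3a KO 1 to 4 and 116, 123.6, 130.5 and 164 CPM in Tet2 KO 1 to 4. The 4 libraries of number range 1 had 10.8 to 28.7 CPM and the other 13 had 80.9 to 164 CPM, with no overlap. Against Rosa KO the fold change was 0.34 ± 0.24 (SE, adjusted p = 0.642) in Tet2 KO at equal number range. Rsad2 had 105, 33.4, 24.1, 73.0 and 51.2 CPM in Rosa KO 1 to 5 and 97.0, 71.99, 75.3 and 68.8 CPM in Asxl1 KO 1 to 4. Rsad2 had 109, 84.1, 61.0 and 58.8 CPM in Dnmt3a KO 1 to 4 and 87.1, 65.2, 59.1 and 73.5 CPM in Tet2 KO 1 to 4. Rsad2 (NCBI gene 58185, chromosome 12, 26442743 to 26456452, minus strand), which encodes viperin, had fold changes of 0.45 ± 0.25 in Asxl1 KO, 0.15 ± 0.30 in Dnmt3a KO and 0.48 ± 0.27 in Tet2 KO, none of which passed. Mx2 was low, at 0.437 to 48.4 CPM, and Cmpk2, a mitochondrial nucleotide kinase gene next to Rsad2, ranged from 47.6 to 112 CPM.

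Samhd1 (NCBI gene 56045, chromosome 2, 157097534 to 157135096, minus strand) encodes an enzyme that depletes the nucleotides that retroviruses need. Samhd1 had 817, 549, 603, 568 and 635 CPM in Rosa KO 1 to 5 and 1001, 719, 527 and 545 CPM in Asxl1 KO 1 to 4. Samhd1 had 1021, 1092, 683 and 683 CPM in Dnmt3a KO 1 to 4 and 787, 862, 751 and 736 CPM in Tet2 KO 1 to 4. Dnmt3a KO 1 and 2 and Asxl1 KO 1 were highest, all in number range 1. Rtp4 (NCBI gene 67775, chromosome 16, 23520219 to 23614222, plus strand) encodes a zinc-finger protein that binds viral RNA replication complexes. Rtp4 had 102, 100.4, 51.6, 97.8 and 68.3 CPM in Rosa KO 1 to 5 and 163, 56.7, 101 and 90.9 CPM in Asxl1 KO 1 to 4. Rtp4 had 123, 104, 38.8 and 57.7 CPM in Dnmt3a KO 1 to 4 and 62.4, 54.6, 125.2 and 122 CPM in Tet2 KO 1 to 4. All 5 libraries of number range 2 lay between 38.8 and 62.4 CPM. Of the other effectors, Isg20 had a fold change of 0.80 ± 0.29 (SE, adjusted p = 0.168) in Asxl1 KO, where Asxl1 KO 1 had 153 CPM and the other 16 libraries 17.3 to 69.1 CPM. Trim30a, which limits inflammatory signalling, had the narrowest span of the 10, at 363 to 538 CPM, and its 4 Tet2 KO libraries (437 to 538 CPM) lay above all Asxl1 KO libraries, where 1.47% of all genes were lower in Asxl1 KO, and above all Dnmt3a KO libraries. Isg20 and Trim30a were picked out after their values were seen.

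Beside Ifi27l2a, the other genes of the type I response were Xaf1, an antagonist of inhibitors of apoptosis, Ifi35 and Ifi44. None of these 3 passed in a knockout, and they ranged from 51.6 to 168 CPM, 30.4 to 90.9 CPM and 32.2 to 92.3 CPM. The medians over all 4 genes of this role were 0.21 in Tet2 KO, 0.06 in Asxl1 KO and 0.15 in Dnmt3a KO.

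The interferon gamma response is represented by guanylate-binding proteins and immunity-related GTPases, which attack the membranes around intracellular pathogens, and by Tap1, a subunit of the peptide transporter of MHC class I. None of the 8 genes passed in a knockout, with medians of 0.24 in Tet2 KO, 0.27 in Asxl1 KO and 0.0012 in Dnmt3a KO. Gbp2 had 144, 91.6, 127.2, 92.7 and 97.6 CPM in Rosa KO 1 to 5 and 122, 121, 135 and 156 CPM in Asxl1 KO 1 to 4. Gbp2 had 99.5, 128, 80.8 and 98.4 CPM in Dnmt3a KO 1 to 4 and 111, 103, 138 and 129.7 CPM in Tet2 KO 1 to 4. Gbp2 (NCBI gene 14469, chromosome 3, 142620663 to 142638008, plus strand) was higher in both Tet2 KO and both Asxl1 KO libraries of number range 3 than in the 4 Rosa KO libraries of that range, with fold changes of 0.27 ± 0.18 and 0.33 ± 0.17 over all libraries. Igtp had 166, 141, 161, 101 and 140.3 CPM in Rosa KO 1 to 5 and 120.1, 111, 159 and 209.7 CPM in Asxl1 KO 1 to 4. Igtp had 147, 151, 93.8 and 141 CPM in Dnmt3a KO 1 to 4 and 192, 145, 166 and 162 CPM in Tet2 KO 1 to 4. Igtp (NCBI gene 16145, chromosome 11, 58199556 to 58207592, plus strand) was lowest in Dnmt3a KO 3 and highest in Asxl1 KO 4. Gbp3 ranged from 35.6 to 130.1 CPM, Gbp7 from 309 to 627 CPM, Irgm2 from 32.8 to 134.5 CPM and Ifi47 from 228 to 537 CPM.

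Irgm1 (NCBI gene 15944, chromosome 11, 48865245 to 48871420, minus strand) regulates the other immunity-related GTPases. Irgm1 had 115, 71.7, 74.3, 71.9 and 68.6 CPM in Rosa KO 1 to 5 and 141, 86.9, 102 and 96.9 CPM in Asxl1 KO 1 to 4. Irgm1 had 115, 126.2, 61.5 and 76.7 CPM in Dnmt3a KO 1 to 4 and 88.9, 62.3, 121 and 120.4 CPM in Tet2 KO 1 to 4. Within number range 3 all 4 knockout libraries lay above the Rosa KO libraries, at 96.9 to 121 CPM against 68.6 to 74.3 CPM. The fold change over all libraries was 0.59 ± 0.18 (SE, adjusted p = 0.12) in Tet2 KO and 0.49 ± 0.17 (SE, adjusted p = 0.153) in Asxl1 KO. Tap1 had 311, 297, 280.5, 322 and 264 CPM in Rosa KO 1 to 5 and 474, 395, 344 and 394 CPM in Asxl1 KO 1 to 4. Tap1 had 291, 335, 371 and 317 CPM in Dnmt3a KO 1 to 4 and 354, 316, 270 and 275 CPM in Tet2 KO 1 to 4. Tap1 (NCBI gene 21354, chromosome 17, 34187556 to 34197225, plus strand) was the only member whose 4 Asxl1 KO libraries all lay above the 5 Rosa KO libraries, where 1.38% of all genes did so, and its fold change of 0.37 ± 0.13 (SE, adjusted p = 0.153) did not pass. In Tet2 KO the fold change of Tap1 was −0.05 ± 0.14.

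Number range 3 holds 4 Rosa KO, 2 Asxl1 KO and 2 Tet2 KO libraries and lets these groups be set side by side within a range. There 14 members were higher in both Tet2 KO libraries than in all 4 Rosa KO libraries and 1, Irf7, was lower, where 13.5% of all genes were higher and 11.6% lower without overlap. In Asxl1 KO 12 members were higher and 3 lower, against 14% and 12% of all genes. The 14 in Tet2 KO were Oas1a, Oas3, Ifit1, Ifit3, Mx1, Samhd1, Bst2, Ly6e, Rtp4, Ifi27l2a, Gbp2, Igtp, Irgm1 and Irgm2. Samhd1 was higher than Rosa KO in both Tet2 KO libraries and lower in both Asxl1 KO libraries of this range.

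The knockouts were compared with each other to ask whether the members differed between them. No member passed the edgeR test in Asxl1 KO against Tet2 KO, Asxl1 KO against Dnmt3a KO or Dnmt3a KO against Tet2 KO, where 0.562%, 0.353% and 0.0937% of all genes passed. DESeq2 passed 0, 1 and 2 members: the sensor gene Ifi208 was higher in Asxl1 KO than in Dnmt3a KO (log2 fold change 0.74, adjusted p = 0.0279), and Ifi208 (−0.80, adjusted p = 0.0323) and Ifi27l2a (−0.82, adjusted p = 0.0339) were lower in Dnmt3a KO than in Tet2 KO. At an unadjusted p under 0.05, 2 members were higher and 4 lower in Asxl1 KO than in Tet2 KO, 4 higher and 1 lower in Asxl1 KO than in Dnmt3a KO, and 0 higher and 5 lower in Dnmt3a KO than in Tet2 KO, where 7.21%, 11% and 5.6% of all genes were past it. The fold change of Ifi27l2a was −0.62 ± 0.18 (SE, adjusted p = 0.219) for Asxl1 KO against Tet2 KO and −0.83 ± 0.20 (SE, adjusted p = 0.132) for Dnmt3a KO against Tet2 KO. Of the 5 members that rose against Rosa KO, Ifi27l2a thus differed between Dnmt3a KO and Tet2 KO in DESeq2 and not in edgeR, and the other 4 passed between knockouts in neither tool. For these comparisons, too, the share of all genes passing in DESeq2 is not given here.

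The number ranges were compared at equal group to describe how far the members varied between them. An F test over the range terms passed for 17 of the 44, against 23.6% of all genes. Range 2 against range 1 had 2 members higher and 11 lower (7.09% of all genes higher and 8.46% lower). Range 3 against range 1 had 1 higher and 8 lower (5.78% and 7.76%), and range 3 against range 2 had 4 higher and 1 lower (6.49% and 5.57%). Without Rosa KO 1 the count for range 3 against range 1 was 5, and without Asxl1 KO 1 that for range 3 against range 2 was 9. What the ranges differ in was not tested.

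**Figure D4:**
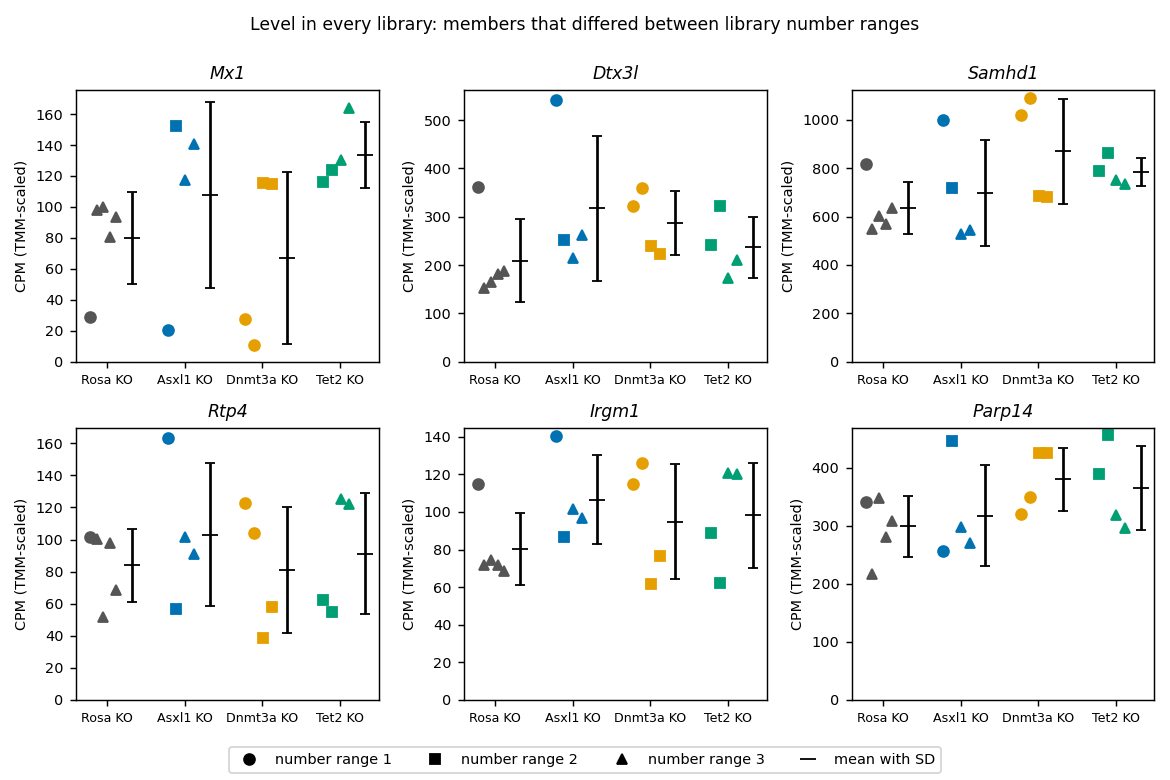
CPM of 6 members that differed between number ranges, in every library, with marker shapes for the range and bars for the group mean with SD (n = 5 for Rosa KO, 4 for each knockout). Mx1 is lowest in the 4 libraries of range 1 (10.8 to 28.7 CPM), Dtx3l is highest there (323 to 541 CPM), and Parp14 is highest in the 5 libraries of range 2 (389.7 to 456 CPM).

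Mx1 was higher in range 2 than in range 1 by 2.37 ± 0.26 (SE, adjusted p = 7.93e-07) on the log2 scale and in range 3 than in range 1 by 2.26 ± 0.26 (SE, adjusted p = 2.26e-06). Oas2 was higher in range 2 than in range 1 (2.68 ± 0.62 SE, adjusted p = 0.00369). In the other direction, Ly6e differed by −1.42 ± 0.17 (SE, adjusted p = 4.22e-06), Ifi27l2a by −1.41 ± 0.18 (SE, adjusted p = 6.33e-06) and Rtp4 by −1.36 ± 0.21 (SE, adjusted p = 7.58e-05) between range 2 and range 1. Ifi27l2a and Bst2 were higher in range 3 than in range 2, by 1.51 ± 0.18 (SE, adjusted p = 4.95e-06) and 1.39 ± 0.23 (SE, adjusted p = 0.000174), which are larger values than those of Tet2 KO against Rosa KO. Dtx3l was lower in range 3 than in range 1 (−1.10 ± 0.15 SE, adjusted p = 1.38e-05), as was Samhd1 (−0.71 ± 0.12 SE, adjusted p = 0.000339). The share of a member's variance in log2 CPM that went with the range had a median of 31.8%, and the share that went with the group 25.9%. Over all genes these medians were 25.6% and 19%. The groups fill the ranges unevenly, so the 2 shares overlap and do not split the variance. For Mx1 they were 89.8% and 23.4%.

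**Figure D5:**
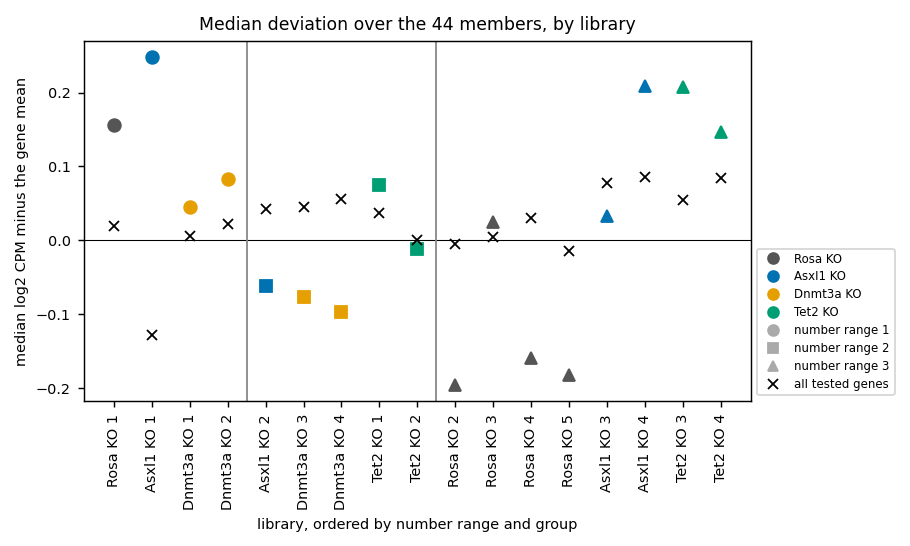
Median over the 44 members of log2 CPM minus the gene mean, for each of the 17 libraries in order of number range and group, with crosses for the median over all tested genes. The members were lowest in Rosa KO 2 (−0.20) and highest in Asxl1 KO 1 (0.25), and 3 of the 4 Rosa KO libraries of range 3 lie below −0.15.

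The median deviation of the members from their gene means ran from −0.20 (Rosa KO 2) to 0.25 (Asxl1 KO 1) on the log2 scale, with Tet2 KO 3 at 0.21 and Asxl1 KO 4 at 0.21. Asxl1 KO 1 was the highest library for 12 of the 44 members and the lowest for 5. Dnmt3a KO 3 was the lowest for 9 and Rosa KO 2 for 7. Asxl1 KO 1 also had the fewest genes with a count (12901) and the lowest TMM factor (0.872). Its level of the red cell gene Hba-a1 was 2303 CPM, against 10.6 to 298 CPM in the other libraries. The part of these traits in its member values was not tested.

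Genes around the members in the pathway were taken from lists of further interferon genes. The type I ligand genes Ifnb1, Ifna2 and Ifna4 had at most 0.123 CPM in any library, and were not tested. Ifng had 81.9, 423, 407, 416 and 398 CPM in Rosa KO 1 to 5 and 166, 63.8, 296 and 256 CPM in Asxl1 KO 1 to 4. Ifng had 72.6, 73.9, 96.6 and 128 CPM in Dnmt3a KO 1 to 4 and 115, 76.9, 178 and 221 CPM in Tet2 KO 1 to 4. Ifng was thus higher in the 4 Rosa KO libraries of number range 3 than in any knockout library, with a fold change of −0.77 ± 0.29 (SE, adjusted p = 0.234) in Tet2 KO and −0.33 ± 0.27 (SE, adjusted p = 0.607) in Asxl1 KO. Of the 8 tested ligands, receptors and kinases, 0 passed in each knockout against Rosa KO, with 2 lower at an unadjusted p under 0.05 in Tet2 KO, 2 in Asxl1 KO and 1 in Dnmt3a KO, against 12.2%, 15.7% and 8.03% of all genes in either direction. The receptor gene Ifnar1 had fold changes of 0.26 ± 0.20 in Tet2 KO and 0.24 ± 0.19 in Asxl1 KO.

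Of the 15 transcription factors and signalling genes outside the set, 0 passed in edgeR against Rosa KO. Irf1, an early target of interferon gamma, had 275 and 279 CPM in Asxl1 KO 3 and 4 against 142 to 165 CPM in Rosa KO 2 to 5, and a fold change of 0.50 ± 0.18 (SE, adjusted p = 0.159) in Asxl1 KO. Of the 7 tested negative regulators 0 passed, and Socs1, which inhibits Jak kinases, had a fold change of 1.77 ± 0.76 (SE, adjusted p = 0.252) in Asxl1 KO. Socs1 was low, at 0.34 to 15.85 CPM over all libraries and 1.42 to 6.65 CPM in Rosa KO. At an unadjusted p under 0.05, 3 of the 15 genes and 1 of the 7 were past it in Asxl1 KO, 1 and 0 in Tet2 KO, and 0 and 0 in Dnmt3a KO, against 15.7%, 12.2% and 8.03% of all genes.

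Of 12 genes of MHC class I processing, which interferon gamma induces, 4 rose in Asxl1 KO, where 0.814% of all genes were higher, and 8 were higher at an unadjusted p under 0.05, where 15.7% of all genes were past it. All 12 had a fold change above 0 in Asxl1 KO with a median of 0.47, against 50% of all genes above 0 and a median of 0.0004. The 4 were Tapbp, which encodes tapasin of the peptide-loading complex (0.81 ± 0.16 SE, adjusted p = 0.00628), the immunoproteasome subunit gene Psmb10 (0.88 ± 0.19 SE, adjusted p = 0.0149) and the proteasome activator genes Psme2 (0.67 ± 0.15 SE, adjusted p = 0.0226) and Psme1 (0.77 ± 0.19 SE, adjusted p = 0.04). Tapbp had 228, 175, 140, 168 and 166 CPM in Rosa KO 1 to 5 and 449, 171, 275 and 256 CPM in Asxl1 KO 1 to 4. Tapbp had 203, 338, 131.4 and 127.2 CPM in Dnmt3a KO 1 to 4 and 119.5, 123, 238 and 239.8 CPM in Tet2 KO 1 to 4. Asxl1 KO 2, in number range 2, lay within the span of Rosa KO, and the other 3 Asxl1 KO libraries lay above all Rosa KO libraries. In Tet2 KO and Dnmt3a KO none of the 12 passed, with 6 higher and 1 lower at an unadjusted p under 0.05 in Tet2 KO and 0 in Dnmt3a KO, against 12.2% and 8.03% of all genes. With no term for the number range, the adjusted p of Tapbp was 0.422. Psmb10 did not pass in Asxl1 KO without Asxl1 KO 3 (largest adjusted p = 0.14). Psme1 did not pass in Asxl1 KO without Asxl1 KO 1, Asxl1 KO 3, Asxl1 KO 4, Rosa KO 1, Rosa KO 2, Rosa KO 3, Rosa KO 4, Rosa KO 5 or Tet2 KO 3 (largest adjusted p = 0.184). Psme2 did not pass in Asxl1 KO without Asxl1 KO 3, Asxl1 KO 4 or Rosa KO 5 (largest adjusted p = 0.161). With the B cell marker mean as a covariate, Psme1 (adjusted p = 0.0832) and Psme2 (adjusted p = 0.0526) did not pass.

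Of 47 further interferon-induced genes tested, Ly6a and Ms4a4c rose in Tet2 KO, Shisa5 rose in Asxl1 KO and the chemokine gene Cxcl10 rose in Dnmt3a KO, against 0.987%, 0.814% and 0.216% of all genes (the last in either direction). Ly6a, which encodes the surface protein Sca-1, had a fold change of 1.01 ± 0.15 (SE, adjusted p = 0.000549) in Tet2 KO. Ly6a had 521, 614, 725, 520.4 and 586 CPM in Rosa KO 1 to 5 and 708, 289, 949 and 702 CPM in Asxl1 KO 1 to 4. Ly6a had 488, 641, 285 and 311 CPM in Dnmt3a KO 1 to 4 and 511, 398, 1406 and 1153 CPM in Tet2 KO 1 to 4. Tet2 KO 3 and 4 were above every other library, and Tet2 KO 1 and 2 lay below all Rosa KO libraries. Ms4a4c, a membrane protein gene of lymphocytes, had fold changes of 0.97 ± 0.20 (SE, adjusted p = 0.0156) in Tet2 KO and −1.14 ± 0.21 (SE, adjusted p = 0.00575) for Asxl1 KO against Tet2 KO. Ms4a4c did not pass in Tet2 KO without Tet2 KO 3 or Tet2 KO 4 (largest adjusted p = 0.217). Ms4a4c did not pass for Asxl1 KO against Tet2 KO without Asxl1 KO 4 or Tet2 KO 3 (largest adjusted p = 0.0648). Shisa5 had 0.61 ± 0.15 (SE, adjusted p = 0.0296) in Asxl1 KO. Shisa5 did not pass in Asxl1 KO without Asxl1 KO 1, Asxl1 KO 3, Asxl1 KO 4, Rosa KO 1, Rosa KO 3 or Rosa KO 5 (largest adjusted p = 0.128). Cxcl10 had 2.02 ± 0.40 (SE, adjusted p = 0.0203) in Dnmt3a KO, and within number range 1, the only range that holds both groups, its fold change was 0.82 (adjusted p = 0.686). Cxcl10 did not pass in Dnmt3a KO without Dnmt3a KO 3, Dnmt3a KO 4, Rosa KO 4 or Tet2 KO 4 (largest adjusted p = 0.0682). Ly6c2 was lower in Dnmt3a KO than in Tet2 KO (−1.40 ± 0.25 SE, adjusted p = 0.0237). Ly6c2 did not pass for Dnmt3a KO against Tet2 KO without Dnmt3a KO 1, Dnmt3a KO 2, Dnmt3a KO 3, Dnmt3a KO 4, Tet2 KO 1 or Tet2 KO 2 (largest adjusted p = 0.272).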

How the data were processed

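The deposited files hold whole-number read counts per gene for each of the 17 libraries, made by the authors and not normalized. The build mm10 and the tools DESeq2 1.26.0 and STAR 2.5.3a come from the submitters' processing notes, with no role stated. Not given in the sources used here were the read counter, the annotation and the strand setting. Per the labels' protocols, RNA was taken with a Direct-zol kit and libraries were made with a TruSeq stranded total RNA kit. The molecule label reads genomic DNA and was taken as an error, since the files are gene counts. Of 24594 gene identifiers, 24570 matched RefSeq GRCm38.p6, which gave names, positions and promoter sequences.

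The main test was edgeR's quasi-likelihood F test (edgeR 4.0.16, R 4.3.3, limma 3.58.1) with TMM scaling, a filter on low counts (minimum count 10, minimum total 15), terms for group and number range, 11 residual degrees of freedom, and Benjamini-Hochberg adjustment over 13881 genes at 0.05. DESeq2 1.42.0 was an alternative. Log2 CPM used a prior count of 2. Total counts ran from 6625833 to 40701203 (median 21642477), and the members took 0.635 to 0.862% of them. The common biological coefficient of variation was 0.604. Replicate numbers were taken from the sample titles. Over 24 same-numbered pairs the correlation of deviations from the group means ran from −0.206 to 0.163, with 2 over 0.1, and that of residuals from the fit on group and number range from −0.669 to 0.217, so the numbers were not taken to pair libraries. No 2 libraries of a group agreed within sampling noise. The statistics were tested on simulated data.

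The members and gene lists were chosen with earlier results of these data known. Values in every library are given for members passing in any comparison between groups, for 12 fixed members (Isg15, Usp18, Ifit1, Ifit3, Oasl2, Irf7, Stat2, Mx1, Rsad2, Gbp2, Igtp and Tap1) and for the 4 further members with the lowest p for the number range terms; others are given by range and count. Alternatives were DESeq2, its size factors in edgeR, no filter, no number range term, a B cell covariate, a replicate block, the 2 groups alone, single ranges, and each library left out. Leaving out both Asxl1 KO libraries of range 3, and comparing 2 knockouts within a single range, were added after seeing the data. Figures were drawn with matplotlib 3.10.9.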

Additional observations from a re-analysis of the deposited data

Results flagged for a closer look

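Each of the 21 members given in every library was checked in each of the 4 groups for a library far from the rest of its group, by the gap to the nearest library divided by the span of the group and set against Dixon's critical value for its size. Of these 84 checks 6 passed, and chance alone flags about 1 in 20 groups. Mx1 was low in Asxl1 KO 1, at 20.7 CPM against 117 to 152 CPM in the other 3 libraries (gap 0.869 of the span). It was also low in Rosa KO 1, at 28.7 CPM against 80.9 to 99.7 CPM (0.832). Both libraries are in number range 1, where Mx1 was also low in Dnmt3a KO 1 and 2.

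Rosa KO 1 was high for Dtx3l, at 361 CPM against 153 to 188 CPM (0.760), and for Irgm1, at 115 CPM against 68.6 to 74.3 CPM (0.844). Rosa KO 1 is the only Rosa KO library of number range 1. The libraries of that range had 323 to 541 CPM for Dtx3l and 115 to 141 CPM for Irgm1. Oasl2 was low in Tet2 KO 2, at 6.78 CPM against 38.1 to 50.9 CPM (0.856). Igtp was low in Dnmt3a KO 3, at 93.8 CPM against 141 to 151 CPM (0.850).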

How the results depend on the processing

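The median over the members stayed above 0 in Tet2 KO in all 26 alternatives and in Asxl1 KO in all 27. With no filter, however, the median over all genes was also above 0. It was then 0.190 in Asxl1 KO, 0.0947 in Tet2 KO and 0.154 in Dnmt3a KO, against 0.231, 0.227 and 0.075 over the members. In Asxl1 KO (0.23) the member median was 0.0164 within range 1 (1 library of each group), 0.144 without both libraries of range 3 and 0.0858 without Asxl1 KO 4. In Dnmt3a KO it turned to −0.0518 with no number range term, −0.0306 with the replicate block, −0.0357 with the 2 groups alone and −0.0362 within range 1, and ran from −0.0058 to 0.194 when 1 library was left out; the cause was not tested. The number of members passing in Asxl1 KO against Rosa KO (2) became 0 with no number range term, 0 with the replicate block, 0 with the 2 groups alone, 1 with the B cell covariate, 5 within range 3 and 1 without both Asxl1 KO libraries of range 3, and ran from 0 to 3 when 1 library was left out. In Tet2 KO (5) it became 0 with no number range term and 1 with the replicate block, and ran from 1 to 5. In Dnmt3a KO (0) it ran from 0 to 1.

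Between knockouts, Asxl1 KO against Tet2 KO (0) had 1 with no filter, 1 with the 2 groups alone and 1 within range 3, and ran from 0 to 1 when 1 library was left out. Asxl1 KO against Dnmt3a KO (0) had 1 with no filter and 1 with DESeq2, and ran from 0 to 2 when 1 library was left out. Within range 1, where Asxl1 KO had 1 library, the median over the members in that comparison was 0.217, against −0.155 over all genes. Dnmt3a KO against Tet2 KO (0) had 2 with no filter and 2 with DESeq2. The range counts became 4 of 13 (range 2 against 1), 0 of 9 (3 against 1) and 2 of 5 (3 against 2) with the replicate block, and the last became 3 with the B cell covariate; they ran from 12 to 14, 5 to 11 and 5 to 9 when 1 library was left out. The cause of these shifts was not tested. The share of all genes passing in each alternative fit is not given here, so the counts of members under the alternatives have no such level beside them. The replicate numbers did not pair the libraries. Range 1 alone holds both Dnmt3a KO and Rosa KO, with 1 Rosa KO library, so without Rosa KO 1 these groups share no range.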
